A study of Mus musculus with 50 samples.

Results

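Gpc3 encodes glypican-3, a heparan sulphate proteoglycan of the cell surface that the fetal liver makes and many hepatocellular carcinomas make again. The tumours described here arose without a carcinogen in C3H/He mice fed the ALIOS diet, a high trans-fat diet with fructose in the drinking water, and were harvested at 48 weeks. Of 50 liver and tumour libraries, 12 such tumours (T2 to T6 and T8 to T14) were ranked by Gpc3 CPM, the reads counted on the gene per 1000000 counted in the library. The groups were thus selected on a measured value. The 4 highest, T13, T11, T12 and T8, became the high Gpc3 tumours, and the 4 lowest, T14, T5, T6 and T2, the low Gpc3 tumours, which makes 8 libraries of 50. T1 has the same labels but was not among the tumours ranked. It held the kidney transcripts Kap, Slc34a1 and Umod at 35350, 4922 and 1812 CPM, against at most 4.4, 0.725 and 0.282 CPM in the 49 other libraries.

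The study followed C3H/He mice on the ALIOS or a control diet, a strain prone to liver tumours, and measured messenger RNA by sequencing. Beside the ranked tumours it holds 11 non-tumour livers of mice on the ALIOS diet, also harvested at 48 weeks, which are the controls here. It also holds 13 tumours of mice given the liver carcinogen DEN (diethylnitrosamine), 8 on the ALIOS and 5 on the control diet. The pilot mice of the study were male and no genotype was altered. The labels do not say which tumours and livers share a mouse, so p-values measure the spread between these samples.

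Fetal liver genes such as Gpc3 and Afp are silenced after birth by repressors that include Zhx2 and Zbtb20. Mature hepatocytes in exchange express cytochromes P450, bile acid enzymes, transporters and enzymes of amino acid and glucose metabolism, in zones set in part by beta-catenin signalling around the central vein. Tumour cells that secrete much protein rely on chaperones of the endoplasmic reticulum (ER), which the unfolded protein response induces, while shortage of amino acids acts through the integrated stress response and ATF4.

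Gpc3 set the groups, so its values are a description. It stood at 367, 260, 225 and 163 CPM in T13, T11, T12 and T8, and at 104, 47.4, 3.23 and 2.40 CPM in T14, T5, T6 and T2. The tumours in between held 141 (T4), 133 (T9), 120 (T3) and 113 CPM (T10). The ranking was continuous at both borders, since T8 lay 1.16 times above T4 and T14 0.924 times T10, while T6 and T2 stood apart from the rest. In the 11 ALIOS livers Gpc3 ran from 0.122 to 1.01 CPM with a median of 0.659, so every ranked tumour, T2 included, lay above every liver. The 13 DEN tumours ran from 7.71 to 1010 CPM with a median of 222.

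**Figure D1:**
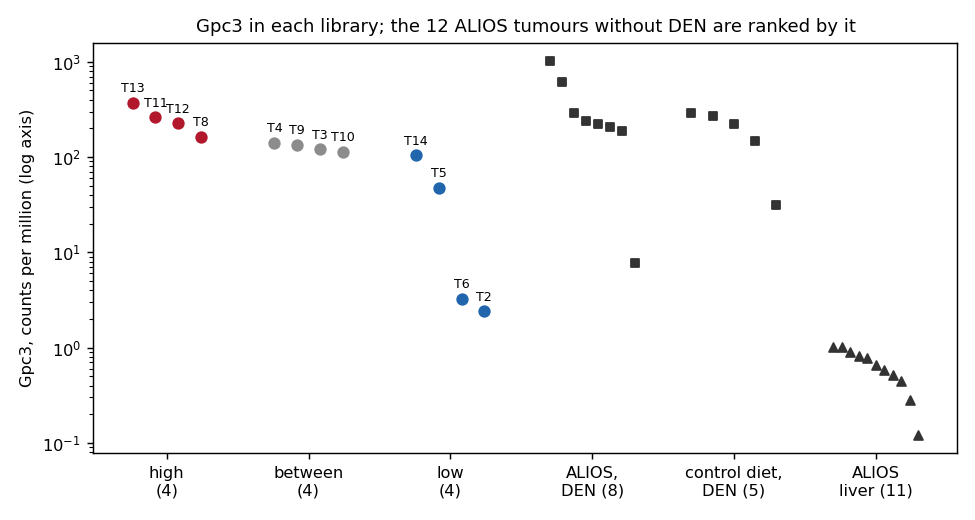
Gpc3 in CPM (vertical log axis) in each library, by group, with the 12 ranked tumours named and 1 point per library. Most tumours lie above 100 CPM, T6 and T2 lie at 3.23 and 2.40 CPM, and the 11 ALIOS livers lie at or under 1.01 CPM.

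Total counts ran from 23798251 to 36244512 in the low and from 30004441 to 33162174 in the high Gpc3 tumours. Plasma protein genes of hepatocytes, a list of 25, summed to between 147300 and 254500 CPM in the low and between 250900 and 298900 CPM in the high Gpc3 tumours. All 8 thus held hepatocyte RNA, but this sum does not tell tumour from liver, since T6 and T2 lay inside the range of the ALIOS livers (127100 to 194100 CPM). In bulk tissue, fewer cells of a type and less RNA per cell cannot be told apart. By the median absolute log2 difference from the mean of the ALIOS livers over 15201 genes, T6 (0.29), T5 (0.357) and T2 (0.379) lay nearest to liver of the 12, while T14 (0.447) lay close to the high Gpc3 tumour T12 (0.463). The livers themselves ran from 0.127 to 0.231. The low Gpc3 group therefore joins 3 tumours near liver with 1 that is not.

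High Gpc3 tumours had more RNA of Kdelr3, Hid1, Sparc, Tubb5, Tubb6 and Mthfd2 and of 6 of 17 genes of the unfolded protein and integrated stress response, Hspa5 and Asns among them. They had less RNA of Pex11a and Acss3, of 4 of 24 genes of cytochromes P450, bile acid enzymes and transporters, of 4 of 12 genes of gluconeogenesis, fructose and glycogen and of 3 of 25 genes of amino acid and urea metabolism. Of 14513 genes tested other than Gpc3, 206 rose (1.42% of the genes tested) and 288 fell (1.98%) in the 4 high against the 4 low Gpc3 tumours at an adjusted p under 0.05 by edgeR's quasi-likelihood test. The median log2 fold change over all genes was -0.02. All 494 kept their sign when any 1 of the 8 tumours was left out. They were called on these same tumours, so the kept signs say little of stability. The number called was 0 without T2, T5 or T6, 1 without T12 or T13, 3 without T11, 414 without T8 and 1520 without T14. At an unadjusted p under 0.05 it stayed between 2562 and 4041. Ranking by CPM after TMM scaling puts T10 in the low group in place of T14, and no gene was then called by edgeR, with 2988 at an unadjusted p under 0.05.

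The 10 genes with the smallest p among those that rose at least 2-fold without overlap of the groups were Kdelr3, Hid1, Hap1, Tubb5, Tubb6, Mthfd2, Sparc, Fam49a, Itga3 and Dapp1. Kdelr3, a receptor that returns chaperones from the Golgi to the ER, came first. It stood at 18.7, 21.9, 9.32 and 12.4 CPM in T13, T11, T12 and T8, and at 0.868, 1.16, 0.926 and 1.05 CPM in T14, T5, T6 and T2. The groups lay far apart, with the tumours in between at 2.92 to 7.73 CPM (T3 lowest), and the livers at 0.0914 to 0.793 CPM. The log2 fold change was 4.01 ± 0.31 (SE, n = 4 and 4, edgeR adjusted p = 0.00576), and the adjusted p ran from 0.00171 to 0.0661 over the fits without 1 tumour. Kdelr3 overlaps Ddx17 on the genome, and whether the counting used strand is not given.

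Hid1, a protein needed for dense core granules and sorting at the Golgi, stood at 33.5, 44.4, 37.5 and 22.6 CPM in T13, T11, T12 and T8, and at 5.89, 5.43, 2.96 and 2.44 CPM in T14, T5, T6 and T2. Every tumour lay above the livers, which reached 1.68 CPM, and the low group lay nearer to them (log2 fold change 3.06 ± 0.35, edgeR adjusted p = 0.0365). Sparc, a secreted protein that binds collagen, stood at 1158, 830, 644 and 698 CPM against 122, 247, 107 and 101 CPM in the same order, with no overlap and with 3 of the 4 low Gpc3 tumours inside the liver range of 40.7 to 134 CPM. Its log2 fold change was 2.59 ± 0.34 (edgeR adjusted p = 0.0365). Sparc is also a marker of stellate cells and fibroblasts, whose 23 markers summed to between 2703 and 4575 CPM in the high and between 1462 and 3236 CPM in the low Gpc3 tumours. These sums include Sparc itself, so they are not separate from the Sparc difference. Only Sparc of the 23 was called (4.35%, beside 1.42% of all genes), their median log2 fold change was -0.58, and their part in the Sparc difference was not tested.

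Among the remaining genes of this rank, the tubulins Tubb5 and Tubb6, which build microtubules, rose by log2 1.11 ± 0.13 and 1.97 ± 0.26. Tubb5 held 98.5 to 141 CPM in the high and 52.1 to 61.3 CPM in the low Gpc3 tumours, and the low group overlapped the livers (26.95 to 60.06 CPM). Mthfd2, a mitochondrial enzyme of one-carbon metabolism made by growing cells, rose by log2 1.90 ± 0.25, from 2.06 to 3.44 CPM in the low to 7.30 to 11.8 CPM in the high Gpc3 tumours, and 2 tumours in between, T9 (16.04 CPM) and T10 (18.2 CPM), lay above both groups. The integrin Itga3, a receptor for laminin, rose by log2 1.56 ± 0.22. Hap1, which links cargo to microtubule motors, rose by log2 1.69 ± 0.19, Fam49a, a regulator of actin, by log2 1.88 ± 0.25, and Dapp1, an adaptor of phosphoinositide signalling, by log2 1.39 ± 0.19. Each of these 7 genes had an edgeR adjusted p of 0.0365, a value shared by many calls.

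In this test by edgeR the unfolded protein and integrated stress response list held the most calls of the 31 lists. Of its 17 genes, all tested, 6 rose, none fell and all 17 had a positive fold change, with a median log2 fold change of 0.98. The share of 35.3% called stands beside 1.42% of all genes that rose. DESeq2 and limma-voom each called 11 of the 17 higher, and by DESeq2 the P450 and amino acid lists held more calls, 12 each. Those tests also called more of all genes than edgeR did. DESeq2 called 966 higher and 1096 lower of 24689 genes, and limma-voom 839 and 873 of 14513. Their calls are given for some of the lists below only, and stand beside these counts. Response elements are known for this response, so the letters that matched them are shown before the values.

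The ER stress response element was searched as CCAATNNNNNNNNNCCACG on both strands in the 250 bases before the start of RefSeq promoters (GRCm38.p6). It was in 37 of 32851 promoters (0.113%), which belong to 35 of 27025 genes (0.13%). This base includes genes too low to be tested here, and the share among tested genes was not computed. Of the genes called higher, 167 of 206 had a promoter in the table, and 4 of them held the element (Hspa5, Creld2, Pdia6 and Syvn1, 2.40%), against 0 of 214 with a promoter among the 288 genes called lower. Pdia6 and Syvn1 are named because of this search, after their values were seen. The stretches run 5′ to 3′ on the plus strand, on which all 4 genes lie, with the matching letters in capitals. They show that 3 matches read as spelt and the match of Creld2 on the opposite strand. The Hspa5 match lies inside the longest Gencode model of the gene, and is shown with a shorter flank.
Hspa5, chr2:34772020-34772048: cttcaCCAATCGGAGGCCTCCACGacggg
Creld2, chr15:88819480-88819578: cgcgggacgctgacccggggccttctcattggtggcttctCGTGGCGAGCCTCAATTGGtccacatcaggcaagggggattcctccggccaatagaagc
Pdia6, chr12:17266451-17266544: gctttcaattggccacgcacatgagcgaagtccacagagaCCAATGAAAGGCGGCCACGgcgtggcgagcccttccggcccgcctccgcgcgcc
Syvn1, chr19:6046492-6046575: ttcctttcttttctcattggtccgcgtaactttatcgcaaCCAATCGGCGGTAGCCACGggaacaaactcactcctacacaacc

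The capitals begin 65 bases before the RefSeq start in Hspa5, 126 in Creld2, 98 in Pdia6 and 44 in Syvn1. The element of the amino acid response, bound by ATF4 with C/EBP proteins, was searched as TGATGNAA on both strands in the same windows. It was in 3.45% of all promoters and 3.91% of all genes with a promoter, in 6 of the 167 genes called higher (3.59%) and in 5 of the 214 called lower (2.34%). The base again includes genes that were not tested. Of the 16 genes of the stress response list with a promoter, 5 held it (31.2%, Asns, Atf3, Chac1, Fgf21 and Herpud1) and 2 held the ER stress element (Hspa5 and Creld2). The list was made of genes of this response, so these shares say nothing about these tumours. Of the 5 genes only Asns was called higher by edgeR. Asns, which held the largest rise of the list, is shown on its own minus strand, inside its Gencode model, with the match 23 bases before the RefSeq start.
Asns, chr6:7693214-7693243: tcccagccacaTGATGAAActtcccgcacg

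Hspa5 (BiP), the main chaperone of the ER lumen, stood at 1023, 1028, 1030 and 750 CPM in T13, T11, T12 and T8, and at 441, 521, 580 and 480 CPM in T14, T5, T6 and T2. The groups did not overlap, but both overlapped the livers, which ran from 313 to 927 CPM with a median of 703. The log2 fold change was 0.98 ± 0.15 (edgeR adjusted p = 0.0365). Against the ALIOS livers neither group was called for Hspa5, with log2 0.48 for the high Gpc3 tumours (adjusted p = 0.124) and -0.49 for the low (adjusted p = 0.202) by edgeR.

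Sdf2l1, a partner of BiP, rose by log2 1.28 ± 0.22, Creld2, an ER disulphide isomerase, by log2 0.85 ± 0.14, and Hyou1, an ER chaperone and exchange factor of BiP, by log2 1.05 ± 0.19, each with an edgeR adjusted p of 0.0365. Sdf2l1 held 20.5 to 30.4 CPM in the high and 8.08 to 15.8 CPM in the low Gpc3 tumours. Creld2 held 26.9 to 31.0 against 15.3 to 18.5 CPM, and Hyou1 96.8 to 176 against 53.3 to 86.1 CPM. For all 3 the livers overlapped both groups, and the tumours in between lay above the low group, with T3 the highest of the 12 for Creld2 at 44.0 CPM. Pdia6, a disulphide isomerase, rose by log2 1.06 ± 0.22 (edgeR adjusted p = 0.0432) and Syvn1, the ubiquitin ligase of ER-associated degradation, by log2 0.72 ± 0.12 (edgeR adjusted p = 0.0365).

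Asns, which makes asparagine, and Phgdh, the first enzyme of serine synthesis, were the members of the list with the largest fold changes. Asns stood at 66.5, 39.9, 30.6 and 3.43 CPM in T13, T11, T12 and T8, and at 1.36, 1.44, 0.866 and 0.336 CPM in T14, T5, T6 and T2. T8 lay far below the other high Gpc3 tumours and near the low group, and the tumours in between split into T9 and T10 at 24.2 and 20.7 CPM and T4 and T3 at 2.98 and 2.18 CPM. The log2 fold change was 5.14 ± 0.85 (edgeR adjusted p = 0.0365). Phgdh stood at 41.6, 49.3, 48.1 and 15.1 CPM in the high group against 3.38, 5.77, 0.508 and 0.294 CPM (log2 fold change 3.95 ± 0.85, edgeR adjusted p = 0.045), and the livers held at most 0.586 CPM.

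Other genes of the response did not pass. Psat1, the next enzyme of serine synthesis, had a log2 fold change of 2.66 ± 0.63 (adjusted p = 0.0549) and Pdia4, a disulphide isomerase, of 0.59 ± 0.14 (adjusted p = 0.0532) by edgeR. The transcription factors Atf4 (0.36 ± 0.19, adjusted p = 0.29), Ddit3 (0.60 ± 0.36, adjusted p = 0.334) and Xbp1 (0.77 ± 0.28, adjusted p = 0.142) were not called by edgeR. Atf4 held 124 to 139 CPM in the high and 79.5 to 127 CPM in the low Gpc3 tumours, ranges that overlap through T14.

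**Figure D2:**
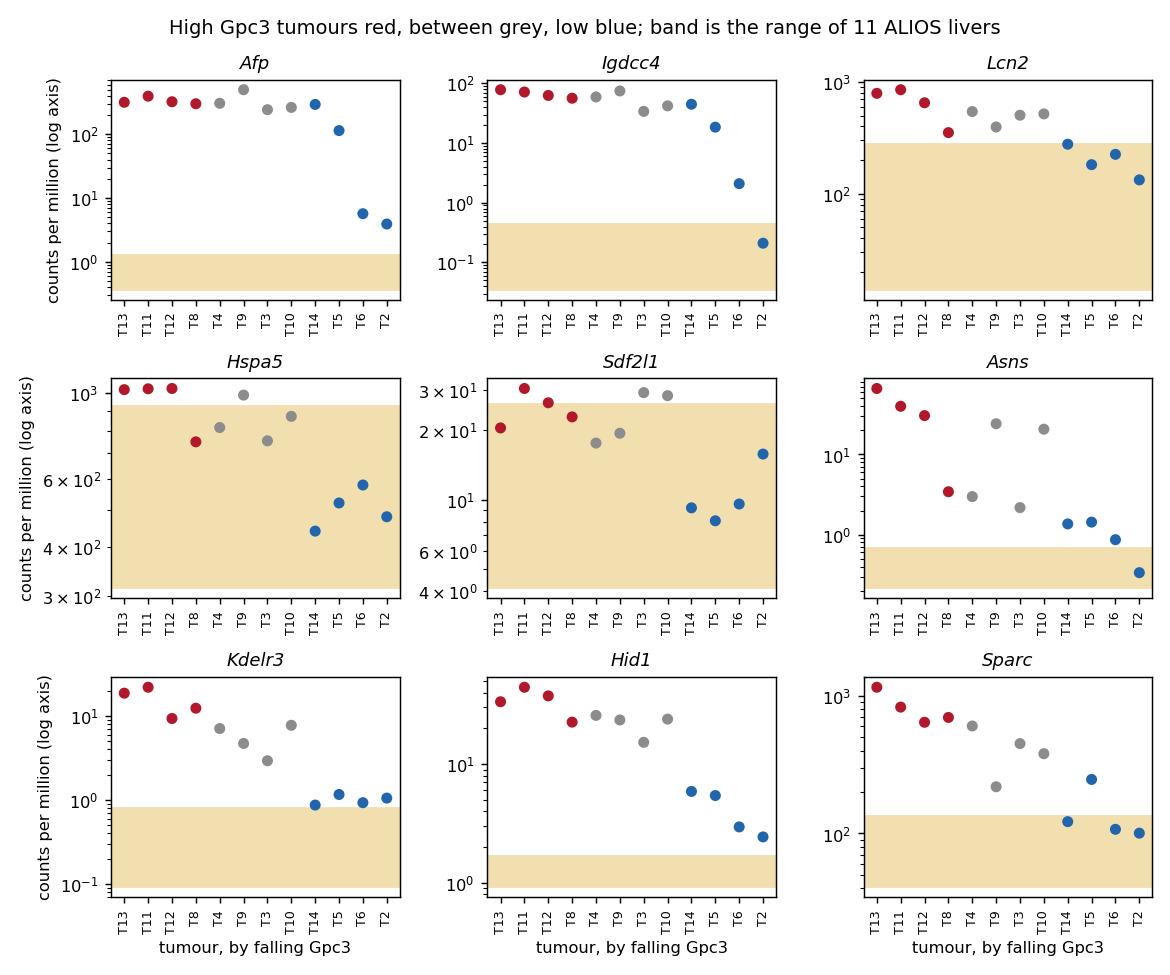
CPM (vertical log axes) of 9 genes in the 12 ranked tumours in order of falling Gpc3, 1 point per tumour, with the range of the 11 ALIOS livers as a band. Hspa5, Sdf2l1, Kdelr3, Hid1 and Sparc separate high (red) from low (blue) tumours. Afp and Igdcc4 in T14 lie just under the high tumours, and are lower in T5 and lower still in T6 and T2.

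Oncofetal and hepatocellular carcinoma markers are the genes Gpc3 itself is counted with. Of the 30 listed, 23 were tested, 1 rose (Lcn2, 4.35% beside 1.42% of all genes) and none fell. Of the 23, 17 had a positive fold change and the median log2 fold change was 1.23. DESeq2 called 6 higher and 3 lower (966 and 1096 of all 24689 genes), and limma-voom 6 higher (839 of 14513). Their summed level ran from 2853 to 4664 CPM in the high and from 296 to 3012 CPM in the low Gpc3 tumours, against 93.2 to 573 CPM in the livers.

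Afp, the fetal counterpart of albumin, stood at 317, 396, 324 and 301 CPM in T13, T11, T12 and T8, and at 294, 114, 5.68 and 3.91 CPM in T14, T5, T6 and T2. T14 lay next to the high group, and only T6 and T2 came near the livers, which reached 1.25 CPM. The log2 fold change of 1.64 ± 1.14 was not called (edgeR adjusted p = 0.412). Akr1c18, a hydroxysteroid dehydrogenase, Igdcc4, a surface protein of the immunoglobulin family, and Scd2, a desaturase of early life, had the same shape. Igdcc4 held 56.5 to 78.4 CPM in the high group and 44.8, 18.5, 2.09 and 0.21 CPM in T14, T5, T6 and T2 (log2 fold change 2.003 ± 1.091, edgeR adjusted p = 0.295).

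Lcn2, a secreted iron-scavenging protein of the acute phase, did separate the groups, at 790, 851, 650 and 352 CPM against 277, 182, 225 and 133 CPM. All 4 low Gpc3 tumours lay at or near the liver range, whose highest value was 276 CPM (log2 fold change 1.72 ± 0.33, edgeR adjusted p = 0.038). Tspan8, a tetraspanin, ran from 166 to 635 CPM in the high group and was 85.5, 25.2, 14.04 and 1.09 CPM in T14, T5, T6 and T2, with log2 3.42 ± 1.05 and an edgeR adjusted p of 0.0956. The imprinted RNA H19 stood at 689 CPM in T13 and between 1.67 and 17.2 CPM in the other high Gpc3 tumours, overlapping the low group at 1.39 to 10.0 CPM (log2 5.15 ± 1.73, edgeR adjusted p = 0.118). Its neighbour Igf2 held at most 0.582 CPM in the high group and 7.06 CPM in T2 (log2 -2.73 ± 0.85, edgeR adjusted p = 0.0988).

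Of the remaining markers tested, the log2 fold changes ran from Bex1 (3.63 ± 1.001, edgeR adjusted p = 0.0768), Ly6d (1.90 ± 0.73), Prom1 (1.87 ± 0.59), Golm1 (1.82 ± 0.60), Cd24a (1.48 ± 0.60), Bex4 (1.23 ± 0.64), Slpi (1.05 ± 0.83) and Robo1 (1.02 ± 0.58) down to Akr1b8 (0.74 ± 0.40). Sox9 (0.16 ± 0.35), Epcam (-0.23 ± 0.65), Tff3 (-0.28 ± 1.19), Igf2bp2 (-0.55 ± 0.87), Spp1 (-0.65 ± 0.73) and Mest (-1.11 ± 0.59), which mark bile duct or progenitor cells or fetal tissue, lay near 0 or below it. None of these 15 passed the test. The fold changes of Sox9, Epcam, Tff3 and Igf2bp2 changed sign under other settings.

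None of the 5 repressors of fetal liver genes was called. Zhx2 held 14.03 to 16.5 CPM in the high and 9.61 to 17.6 CPM in the low Gpc3 tumours (log2 0.27 ± 0.16, edgeR adjusted p = 0.343), and Zbtb20 107 to 150 against 98.7 to 184 CPM (log2 -0.17 ± 0.19, edgeR adjusted p = 0.615). Zhx1 (0.03 ± 0.18), Zhx3 (0.08 ± 0.19) and Zfhx3 (0.45 ± 0.19) were also not called by edgeR, DESeq2 or limma-voom, 1 of the 5 had an unadjusted p under 0.05, and the signs of Zhx1, Zhx3 and Zbtb20 changed under other settings.

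Of 25 glypicans, heparan sulphate enzymes and glypican partners tested, edgeR called 0, with 9 at an unadjusted p under 0.05, while DESeq2 called 1 higher and 3 lower and limma-voom 1 in each direction. The median log2 fold change was -0.02, that of all genes. Gpc4, the neighbour of Gpc3 on the X chromosome, held 49.2 to 87.4 CPM in the high and 28.6 to 48.6 CPM in the low Gpc3 tumours, with no overlap but with T8 and T5 next to each other (log2 0.85 ± 0.21, edgeR adjusted p = 0.0623).

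On the other side, the 10 genes with the smallest p among those that fell at least 2-fold without overlap were Pex11a, Cyp2b10, Slc22a4, G0s2, Dusp1, Cmbl, Corin, Dlat, Acss3 and Ephx2. Pex11a, a protein that divides peroxisomes and is a target of PPAR-alpha, stood at 26.2, 26.9, 34.04 and 38.4 CPM in T13, T11, T12 and T8, and at 80.7, 94.6, 117 and 94.8 CPM in T14, T5, T6 and T2. The low group lay inside the liver range of 48.7 to 160 CPM and the high group under it (log2 -1.56 ± 0.16, edgeR adjusted p = 0.0365). Cyp2b10, the cytochrome P450 that the nuclear receptor CAR (Nr1i3) induces, stood at 0.097, 0.0332, 0.121 and 0.0667 CPM against 0.713, 1.27, 1.91 and 1.72 CPM, and the livers at 0.797 to 4.67 CPM. These are few reads in the high group, and lack of overlap was a condition for naming the gene (log2 -3.99 ± 0.48, edgeR adjusted p = 0.0365).

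Corin, a protease, and Acss3, a mitochondrial acyl-CoA synthetase, had the largest falls of the 10, at log2 -5.22 ± 0.73 and -6.05 ± 0.89. Corin held 0.097 to 0.784 CPM in the high and 4.06 to 22.7 CPM in the low Gpc3 tumours. Acss3 held 0, 0.166, 0.482 and 0.0667 CPM in T13, T11, T12 and T8 and 4.65, 11.1, 28.7 and 7.44 CPM in T14, T5, T6 and T2, against 8.80 to 20.8 CPM in the livers. Both genes were thus close to nil in the high group. For Acss3, T14 and T2 of the low group lay under the liver range, T5 inside it and T6 above it. Slc22a4, an organic cation transporter, had a log2 fold change of -3.22 ± 0.40, and G0s2, the inhibitor of the lipase ATGL, of -1.87 ± 0.24. Ephx2, the soluble epoxide hydrolase, and Cmbl, another hydrolase, had log2 fold changes of -1.68 ± 0.25 and -1.69 ± 0.23. Dlat, a subunit of pyruvate dehydrogenase, and Dusp1, a MAP kinase phosphatase whose gene overlaps Ergic1, had -1.43 ± 0.21 and -1.40 ± 0.18. These genes shared the edgeR adjusted p of 0.0365.

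The cytochromes P450, bile acid enzymes and uptake transporters, which mark mature hepatocytes, had a median log2 fold change of -2.32 over 24 genes. Of these, 4 fell (16.7%, beside 1.98% of all genes), none rose and 2 had a positive fold change. DESeq2 called 12 lower and limma-voom 7. Their summed level was 1341 to 2885 CPM in the high Gpc3 tumours, 2315 CPM in T14 and up to 10560 CPM in the rest of the low group, against 11200 to 18870 CPM in the livers.

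Slco2b1, an uptake transporter of organic anions, stood at 4.27, 2.59, 11.6 and 4.83 CPM in T13, T11, T12 and T8, and at 23.6, 89.4, 155 and 196 CPM in T14, T5, T6 and T2. T6 and T2 reached the liver range of 150 to 192 CPM, and T14 lay nearer to the high group (log2 -4.24 ± 0.68, edgeR adjusted p = 0.0365). Cyp27a1, an enzyme of bile acid synthesis, held 20.2 to 46.4 CPM in the high group and 44.1, 161, 176 and 250 CPM in T14, T5, T6 and T2. By CPM T14 lay just under T12 for Cyp27a1, so these groups overlapped (log2 -2.35 ± 0.46, edgeR adjusted p = 0.0385). Cyp2f2, a P450 of the portal zone, and Cyp3a11, a P450 of drug metabolism, fell as well.

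The nuclear receptor Nr1i3 (CAR) was the 1 gene called of 22 hepatocyte transcription factors (4.55%, beside 1.98% of all genes). It stood at 8.70, 2.29, 13.3 and 13.7 CPM in the high group and at 16.9, 106, 106 and 333 CPM in T14, T5, T6 and T2. T3, between the groups, reached 193 CPM, at the liver level of 111 to 292 CPM (log2 -3.79 ± 0.86, edgeR adjusted p = 0.0499). Nr1i3 overlaps Tomm40l, and the median log2 fold change of the 22 was -0.37.

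Of 25 genes of amino acid and urea metabolism 3 fell (12%, beside 1.98% of all genes) and none rose. None of the 25 had a positive fold change and the median was log2 -0.82. Prodh, which degrades proline, Gnmt, which uses up S-adenosylmethionine, and Bhmt, which remakes methionine, were the 3 that fell. Prodh stood at 3.69, 2.06, 15.98 and 6.90 CPM in T13, T11, T12 and T8, and at 24.97, 126, 145 and 272 CPM in T14, T5, T6 and T2 (log2 -4.23 ± 0.81, edgeR adjusted p = 0.037). Bhmt ran from 93.0 to 323 CPM in the high and from 392 to 2437 CPM in the low Gpc3 tumours (log2 -2.88 ± 0.54, edgeR adjusted p = 0.0365). DESeq2 called 12 of the 25 lower and limma-voom 10.

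Of 12 genes of gluconeogenesis, fructose and glycogen, 4 fell (33.3%, beside 1.98%) and none rose. G6pc, which releases glucose from the liver cell, stood at 6.21, 7.83, 19.3 and 7.57 CPM in T13, T11, T12 and T8, and at 19.6, 128, 116 and 113 CPM in T14, T5, T6 and T2. T14 lay with the high group, a hair above T12 (log2 -3.13 ± 0.57, edgeR adjusted p = 0.0365). Khk, the first enzyme of fructose use, fell by 1.54 ± 0.31 on the log2 scale (edgeR adjusted p = 0.0419), with 122 to 254 CPM against 398 to 782 CPM. Fbp1, of gluconeogenesis, and Pygl, the liver glycogen phosphorylase, fell too. Among glycolytic isoforms, Pklr, the liver pyruvate kinase, fell by 1.08 ± 0.19 on the log2 scale and Pfkp, the platelet type of phosphofructokinase, rose by log2 2.65 ± 0.53 (edgeR adjusted p = 0.0405), from 1.85 to 13.99 CPM to 34.5 to 68.4 CPM.

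In lipid metabolism, 3 of 16 PPAR-alpha and fatty acid oxidation genes fell (Ehhadh, Cpt2 and Cyp4a10, 18.8% beside 1.98% of all genes), 1 of the 16 had a positive fold change and the median was log2 -0.56. Cpt2, the inner carnitine palmitoyltransferase, held 48.0 to 63.0 CPM in the high and 72.1 to 113 CPM in the low Gpc3 tumours (log2 -0.75 ± 0.14, edgeR adjusted p = 0.0365). Of 14 PPAR-gamma and lipid droplet genes 3 fell (21.4%) and 5 had a positive fold change. Those that fell were G0s2, Plin5, a coat protein of droplets beside mitochondria, and Fitm2, an ER protein of droplet formation. G0s2 stood at 30.9, 14.5, 24.2 and 25.6 CPM against 80.3, 81.3, 89.5 and 112 CPM, with no overlap, and T3 at 119 CPM. Scd1, the main liver desaturase, was the 1 gene called of 15 in fatty acid synthesis (6.67%) and ran from 5958 to 14710 CPM in the high and from 28010 to 66130 CPM in the low Gpc3 tumours (log2 -1.96 ± 0.43, edgeR adjusted p = 0.0473). Srebf2, the regulator of cholesterol synthesis, rose by log2 0.63 ± 0.14 (edgeR adjusted p = 0.0461), 1 of 17 genes of that pathway called (5.88%, beside 1.42% of all genes).

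In the growth hormone and IGF axis 3 of 19 genes fell (15.8%, beside 1.98% of all genes), the receptor Ghr and the circulating products Igf1 and Igfals. Igf1 stood at 95.3, 126, 212 and 199 CPM in T13, T11, T12 and T8, and at 268, 472, 412 and 729 CPM in T14, T5, T6 and T2. Only T2 reached the liver range of 557 to 825 CPM (log2 -1.50 ± 0.34, edgeR adjusted p = 0.0488). Ghr held 114 to 187 CPM in the high and 265 to 487 CPM in the low Gpc3 tumours, against 478 to 672 CPM in the livers (log2 -1.21 ± 0.23, edgeR adjusted p = 0.0365). Igfals, which holds IGF1 in the circulation, fell by 3.38 ± 0.71 on the log2 scale (edgeR adjusted p = 0.0432). The median of the 19 was log2 -0.08, and 7 of them had a positive fold change. DESeq2 called 4 of the 19 higher and 6 lower, and limma-voom 4 higher and 3 lower.

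**Figure D3:**
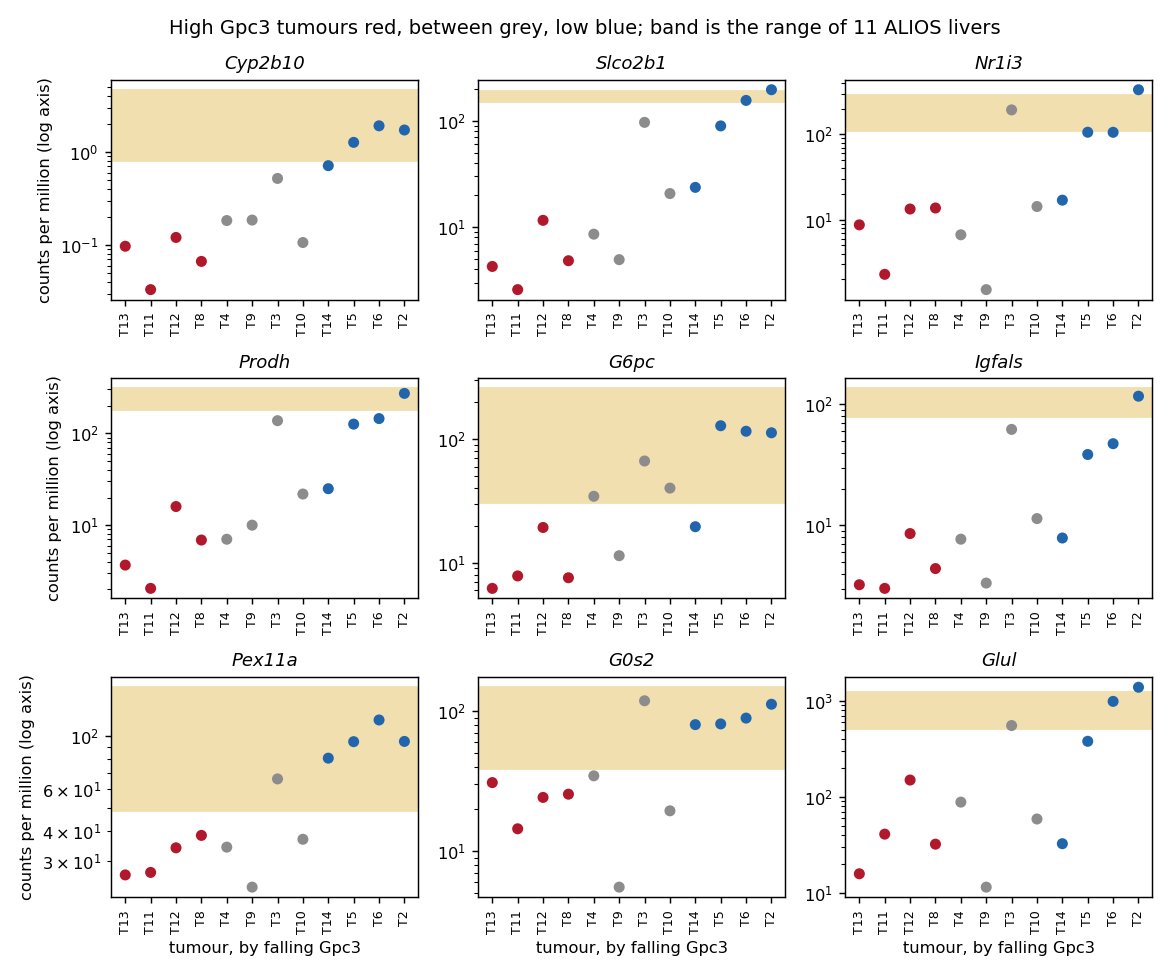
CPM (vertical log axes) of 9 genes in the 12 ranked tumours in order of falling Gpc3, 1 point per tumour, with the range of the 11 ALIOS livers as a band. T5, T6 and T2 (blue) lie at or near the band, T14 (blue) lies next to the high tumours (red) for Slco2b1, Nr1i3, Prodh, G6pc, Igfals and Glul, and T3 (grey) lies with or near the low tumours.

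Beta-catenin targets and pericentral genes had the lowest median of all lists, log2 -2.53 over 19 genes, with 1 positive fold change. None was called by edgeR or limma-voom, 14 had an unadjusted p under 0.05 and DESeq2 called 9 lower. Glul, the glutamine synthetase of the cells around the central vein, stood at 15.9, 41.1, 150 and 32.3 CPM in T13, T11, T12 and T8, and at 32.7, 378, 982 and 1377 CPM in T14, T5, T6 and T2. T14 lay among the high Gpc3 tumours, while T6 and T2 lay at or above the livers, 509 to 1230 CPM (log2 -3.47 ± 1.04, edgeR adjusted p = 0.0911). The summed level of the list was 411 CPM in T14 and up to 6936 CPM in the low group, against 192 to 1249 CPM in the high Gpc3 tumours.

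No proliferation gene on the lists passed the test. EdgeR called 0 of 25 genes of G1 and S phase and 0 of 22 of G2 and M phase, with 2 and 0 at an unadjusted p under 0.05 and medians of log2 0.02 and -0.14. DESeq2 and limma-voom each called 1 of the 25 lower and none of the 22. The slope on log2 Gpc3 over all 12 tumours turned the direction of the G2 and M phase genes, with 22 of 22 positive, a median of 0.14 and no call against 6 of 22 positive here, and 2 G1 and S phase genes rose in it. Without T2 and T6 that turn was lost, with 5 of 22 slopes positive and a median of -0.105. No gene of either phase list was then called. Mki67, a marker of cycling cells, held 7.20 to 19.7 CPM in the high and 5.93 to 19.2 CPM in the low Gpc3 tumours (log2 0.09 ± 0.45, edgeR adjusted p = 0.925), and its sign changed in 5 of the other settings. Alb, the main plasma protein gene, stood at 161100, 155300, 155100 and 149300 CPM against 146400, 130900, 75300 and 58780 CPM (log2 0.62 ± 0.45, edgeR adjusted p = 0.426). T6 and T2 lay within the liver range of 44340 to 90920 CPM. EdgeR called none of the 25 plasma protein genes, with 6 at an unadjusted p under 0.05, and DESeq2 called 5 higher and 1 lower and limma-voom 3 higher.

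Among signalling lists, p53 targets had a median of log2 1.26 over 16 genes with 1 call (6.25%, beside 1.42% of all genes). It was Sesn2, a stress sensor upstream of mTORC1 (log2 1.29 ± 0.25, edgeR adjusted p = 0.0385). Of the 16 p53 targets, 12 had an unadjusted p under 0.05 by edgeR, and DESeq2 called 9 higher and limma-voom 3. MAPK pathway output had a median of 0.87 over 20 genes with 17 positive and no edgeR call, 9 at an unadjusted p under 0.05, and 7 (DESeq2) and 5 (limma-voom) called higher. NRF2 targets (median -0.13 over 16 genes) and imprinted genes (0.11 over 21) held no edgeR call, with 3 and 7 at an unadjusted p under 0.05, and DESeq2 called 1 in each direction and 3 higher and 1 lower, and limma-voom 0 and 2. The interferon-stimulated genes Usp18 (log2 0.91 ± 0.15) and Cxcl10 (log2 1.56 ± 0.35) rose, 2 of 15 (13.3%, beside 1.42% of all genes). The median of the 15 was -0.06. None was called with 6 against 6 or by the slope over the 12 tumours, where 5 of 15 were positive. The periportal list (median -0.38 over 12) held Ctsc, a lysosomal protease, which rose by log2 1.07 ± 0.20, and Cyp2f2.

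**Figure D4:**
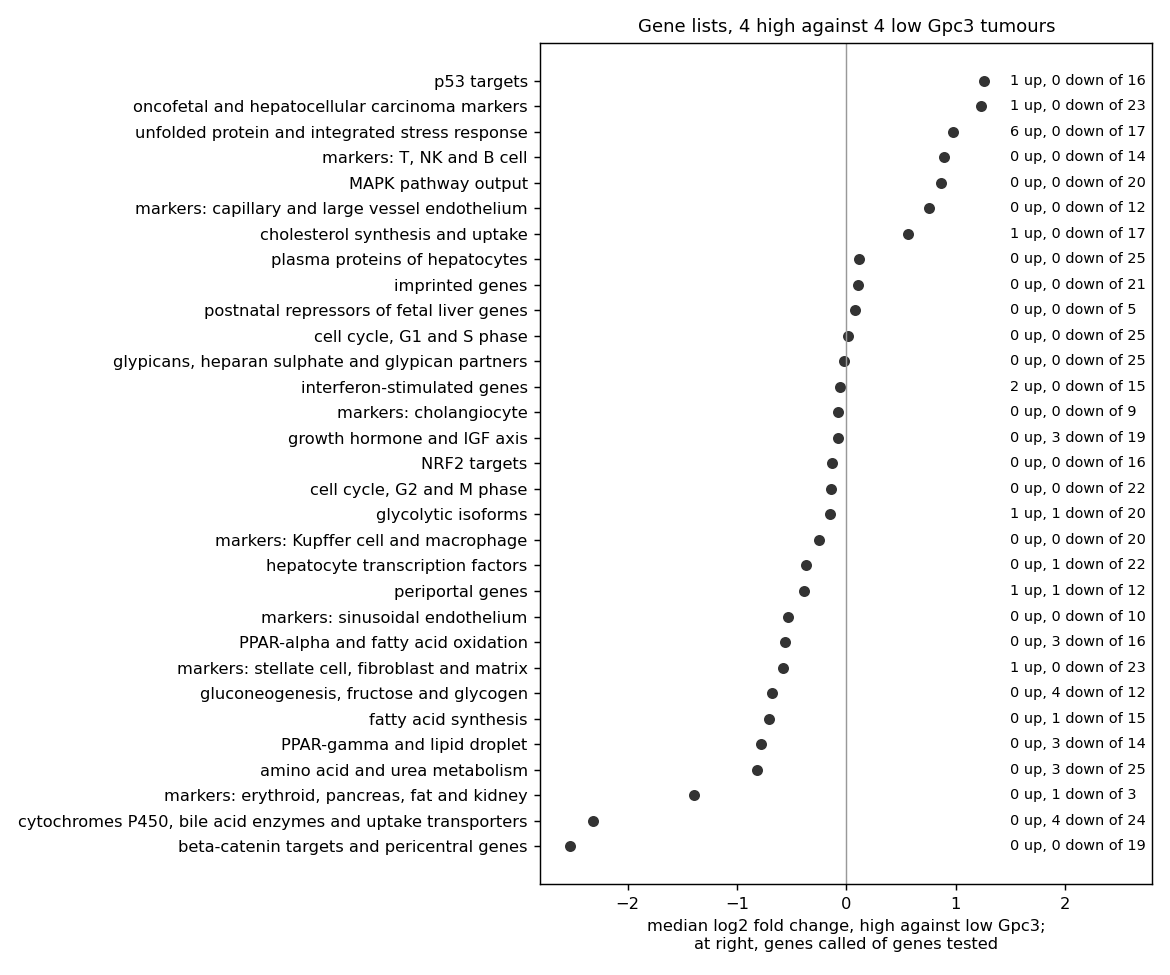
Median log2 fold change of high against low Gpc3 tumours (horizontal axis, 1 point per list) for the 31 gene lists, with the number of genes called in each direction of those tested at the right. The stress response list has 6 of 17 called higher at a median of 0.98, and the P450 and beta-catenin lists have the lowest medians, -2.32 and -2.53.

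Few markers of other cells were called. EdgeR called none of 20 Kupffer cell and macrophage, 14 lymphocyte, 10 sinusoidal endothelial, 12 other endothelial or 9 cholangiocyte markers tested, with 1, 3, 1, 5 and 2 at an unadjusted p under 0.05 in that order. DESeq2 called 1, 2, 0, 3 and 1 of them higher and limma-voom 1, 1, 0, 0 and 1. The summed macrophage markers ran from 126 to 670 CPM in the high and from 147 to 818 CPM in the low Gpc3 tumours, the lymphocyte markers from 15.03 to 50.1 against 14.9 to 17.98 CPM, and the sinusoidal markers from 137 to 408 against 206 to 485 CPM. Cholangiocyte markers summed to 212 to 748 against 37.8 to 223 CPM and those of other endothelium to 131 to 382 against 110 to 279 CPM. By gene, the median log2 fold change was -0.07 for cholangiocyte markers (4 of 9 positive) and 0.75 for other endothelium (11 of 12). It was -0.53 for sinusoidal (1 of 10), -0.25 for macrophage (9 of 20) and 0.89 for lymphocyte markers (12 of 14). Of 12 erythroid, pancreas, fat and kidney markers 3 were tested, and 1 fell, beside 1.98% of all genes (Alas2, the erythroid first enzyme of haem synthesis, log2 -2.09 ± 0.40, edgeR adjusted p = 0.0385). The part of these cells in the differences above was not tested.

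The 4 tumours between the groups took no part in the test, and 3 of them resembled the high group. Of the 206 genes called higher, T9 and T10 each lay nearer to the mean of the high group for 90.8% and T4 for 77.2%, but T3 for 47.1%. Of the 288 called lower, T9 lay nearer to the high group for 93.8%, T4 for 76.7%, T10 for 76.4% and T3 for 21.2%. T3, whose Gpc3 of 120 CPM is above that of T10, thus lay with the low group for most genes called lower. T14 lay nearer to the high group for 28.1% of the genes called lower, although it helped to set the mean of the low group. For the genes called higher it did so for 0.485% only.

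**Figure D5:**
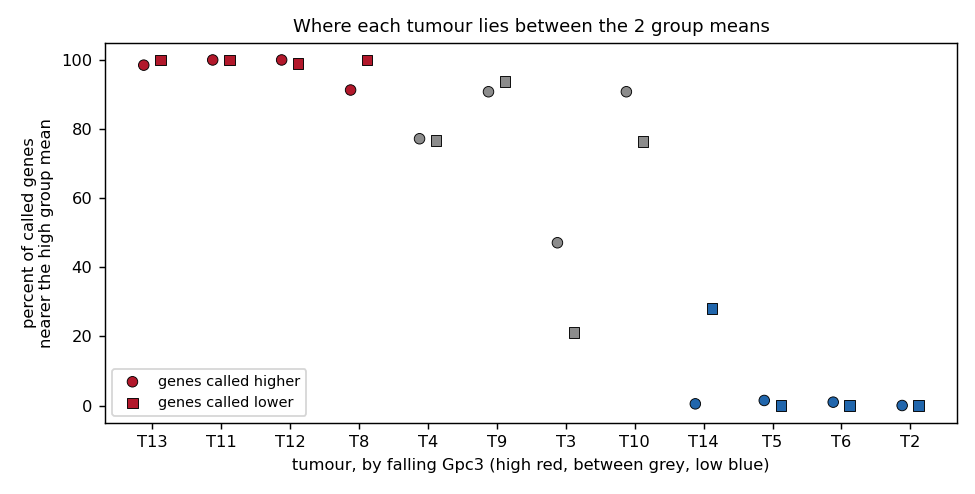
Percent of the genes called higher (circles, 206) and lower (squares, 288) for which each tumour's log2 CPM lies nearer to the mean of the high than of the low Gpc3 tumours (vertical axis), in order of falling Gpc3. T9, T10 and T4 lie at 76.4% or above, T3 lies at 47.1% and 21.2%, and T14 at 0.485% for genes called higher and 28.1% for genes called lower. The high and low tumours set these means themselves.

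With log2 Gpc3 as a continuous term over all 12 tumours, 1034 of 15481 genes rose with it (6.68%) and 924 fell (5.97%) by edgeR. The fold changes in this fit are per doubling of Gpc3. Of the 25 oncofetal markers tested 13 rose and 2 fell (Cap2 and Sall4, at -0.87 and -0.80 per doubling), and of those that rose Afp had a slope of 1.09 (adjusted p = 0.000324), Igdcc4 of 1.03 (adjusted p = 0.000358) and Akr1c18 of 0.88 (adjusted p = 0.000546) by edgeR. In the stress response list 10 of 17 rose, in MAPK pathway output 10 of 21, and in the amino acid list 11 of 25 fell. Without T6 and T2, 7 genes were called over the 10 other tumours, 5 higher and 2 lower, with 1972 at an unadjusted p under 0.05. Bex1, a small X-linked protein of nerve cells and progenitors, was the 1 oncofetal marker among the 7.

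Each group was also set against the 11 ALIOS livers, which both comparisons share. High Gpc3 tumours had 4134 of 15200 genes higher (27.2%) and 3747 lower (24.7%) than liver, and low Gpc3 tumours 2155 higher (14.2%) and 1281 lower (8.43%) by edgeR. Scaling by library totals alone gave 4891 higher and 3037 lower for the high and 3571 and 451 for the low group, moving the median of all genes from log2 0.04 to 0.14 and from 0.07 to 0.21. DESeq2 size factors gave 1837 higher and 1688 lower for the low group, so its split between directions depends on the scaling. Without T14 the low group had 893 higher and 574 lower.

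By list, the P450 and transporter genes had 22 of 24 lower than liver in the high and 9 in the low Gpc3 tumours, with medians of log2 -4.67 and -1.21. Amino acid genes had 23 and 14 of 25 lower, and beta-catenin and pericentral genes 16 and 1 of 20. Of 25 oncofetal markers 17 were higher and 2 lower than liver (Cap2 and Sall4) in the high and 14 higher and none lower in the low Gpc3 tumours, with medians of log2 3.0 and 1.99. Afp was log2 8.61 above liver in the high and 6.98 in the low group, the latter carried by T14 and T5. Genes of G2 and M phase had 9 and 8 of 22 higher, with medians of 1.03 and 1.15.

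The 13 DEN tumours were not used in the ranking. With diet as a covariate, 17 of 16082 genes followed log2 Gpc3 there (0.106%, 16 higher and 1 lower) by edgeR. Of the 206 genes called higher in the tumours without DEN 192 had a positive slope (93.2%, beside 52.8% of all genes), and of 285 of the 288 called lower that were tested 261 had a negative one (91.6%, beside 47.2%). T23, with the lowest Gpc3 of the 13 at 7.71 CPM, lay near liver (a median absolute log2 difference of 0.346), and T24 had the highest at 1010 CPM. Without these 2 tumours the shares were 58.7% (all genes 51.4%) and 43.5% (all genes 48.6%). No gene was then called by edgeR and 1210 had an unadjusted p under 0.05. Slopes in the same direction at an unadjusted p under 0.05 made up 10.2% of the genes called higher (all genes 4.29%). Of the genes called lower they made up 3.16% (all genes 3.38%).

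Ocstamp, a membrane protein of osteoclast fusion, and Slc48a1, a haem transporter, were the 2 genes called both higher in high Gpc3 tumours and with Gpc3 in DEN tumours. Ocstamp stood at 38.3, 36.3, 19.5 and 15.1 CPM in T13, T11, T12 and T8, and at 6.26, 5.57, 2.33 and 2.40 CPM in T14, T5, T6 and T2, with no overlap. Its slope in the DEN tumours was 0.56 ± 0.08 per doubling of Gpc3 (edgeR adjusted p = 0.0142). They are named after their values were seen. Afp had the smallest p of the DEN tumours, with a slope of 0.99 ± 0.10 (edgeR adjusted p = 0.00284), and 0.96 without T23 and T24 (unadjusted p = 0.000519, adjusted p = 0.33 by edgeR). The slopes themselves differed between tumours with and without DEN for 0 of 16649 genes by edgeR, with 836 at an unadjusted p under 0.05.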

How the data were processed

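The authors prepared stranded mRNA libraries, mapped read pairs to mm10 with STAR and ran HTSeq on Gencode M6 exons; versions and the strand option are not given in the sources used here. They deposited 1 table of raw counts per gene, 45792 rows over 50 libraries, not normalized, with total counts of 23798251 to 45751398. Reads are not independent molecules. Coordinates are from Gencode M21 on GRCm38, promoters from RefSeq on GRCm38.p6.

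From these counts CPM was computed, the 12 tumours were ranked by Gpc3 CPM, and edgeR 4.0.16 in R 4.3.3 was run (filterByExpr, TMM, glmQLFit, glmQLFTest), with Benjamini-Hochberg adjustment over all genes tested other than Gpc3 and a threshold of 0.05. The fits were tested on simulated data. The groups were set from these same libraries, so a call says that a gene goes with Gpc3 among them. The comparisons with liver used 1 fit with 3 groups. Slopes used log2(Gpc3 CPM + 1). SE is the fold change over the root of the F statistic. DESeq2 1.42.0, limma 3.58.1 (voom with sample weights), other scalings, no filter, other group sizes and leaving out each tumour were alternatives; those with sample weights, a robust spread, without T2 and T6 and without T23 and T24 were added after the data were seen.

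The 31 gene lists and the members were chosen with earlier results of these data known. Named genes were the 10 with the smallest p in each direction (called, at least 2-fold, no overlap in CPM, no predicted gene), all tested oncofetal and repressor genes, up to 2 called genes of each other list per direction, and Alb, Mki67 and Glul. Genes named outside this rule, after their values were seen, were Atf4, Ddit3, Xbp1, Psat1, Pdia4, Phgdh, Creld2, Hyou1, Sdf2l1, Pdia6, Syvn1, Atf3, Chac1, Fgf21, Herpud1, Gpc4, Cap2, Sall4, Cyp3a11, Cyp4a10, Fbp1, Pygl, Gnmt, Igf1, Plin5, Ocstamp, Slc48a1 and the kidney markers. Where a named gene overlaps another expressed gene (Kdelr3, Dusp1, Nr1i3, Pfkp, Cxcl10, Alas2, Golm1, Mest, Zhx3, Syvn1, Slc48a1), or has near copies (Cyp2b10, Cyp3a11, Cyp4a10, Tubb5, Tubb6), its reads may be shared between genes.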

Additional observations from a re-analysis of the deposited data

Results flagged for a closer look

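Among 152 groups of 4 to 8 libraries searched for a library far from the others of its group (Dixon's 95% value, which chance passes in about 1 in 20 groups, so 7.6 here), 6 had one. Hspa5 was 750 CPM in T8, against 1023 to 1030 CPM in the other 3 high Gpc3 tumours. In T11, Cmbl was 19.7 CPM against 30.1 to 32.4 CPM, Ehhadh 82.6 CPM against 127 to 139 CPM and Ghr 114 CPM against 176 to 187 CPM in the other high Gpc3 tumours. G6pc was 19.6 CPM in T14 against 113 to 128 CPM in the other 3 low Gpc3 tumours. Gpc3 was 7.71 CPM in T23, against 190 to 1010 CPM in the other 7 DEN tumours on the ALIOS diet.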

How the results depend on the processing

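Main limits are that the groups were set from these libraries, that the low group is mixed and that 4 against 4 tumours gave calls that single tumours decide. Genes called between high and low Gpc3 tumours, 494, numbered 1272 with 3 against 3, 1683 with 6 against 6, 1958 over the 12 tumours, 7 without T2 and T6, 2062 by DESeq2, 1712 by limma-voom, 3405 with livers in the fit, 0 after ranking by TMM CPM, and 0 to 1520 with 1 tumour left out. DESeq2 size factors, library totals, no filter, a robust spread and a 2-fold limit gave 483, 534, 592, 485 and 357. Without 1 low Gpc3 tumour, calls against liver ran from 1467 to 3951 (3436 with all), and high Gpc3 calls kept within 1.5 times of 7881. DEN calls, 17, were 1 on the ALIOS diet alone, 0 without T23 and T24, and 3 (without T23) to 95 (without T25) with 1 tumour left out, also 8 without T24, 9 without T17 and 11 without T19. Of the 45 called genes that the naming rule gave, 43 to 45 lost the call without T2, T5, T6, T11, T12 or T13, over the 10 tumours or (44 of them) under TMM ranking, and none turned sign in the settings tried. These settings share tumours with the fit that called the 45 genes, so the kept signs say little. The signs that changed belonged to genes not called. Over the 10 tumours without T2 and T6 these were Epcam (0.0181), Mki67 (-0.10) and Sox9 (-0.16). With 6 against 6 they were Igf2bp2 (0.23), Sox9 (-0.0258) and Zbtb20 (0.0324), and by TMM ranking Sox9 (-0.21), Tff3 (0.50) and Zhx1 (-0.0158). Tff3 was 1.09 with 3 against 3, 0.62 over 12 tumours and 1.15 by limma-voom, Mki67 -0.0849 by limma-voom, and Zhx1 -0.037 with library totals. With 1 tumour left out, Epcam ran from -0.56 to 0.74, Mki67 from -0.31 to 0.57, Sox9 from -0.0937 to 0.36, Tff3 from -0.69 to 0.86, Zhx1 from -0.0616 to 0.15 and Zhx3 from -0.0769 to 0.18. The causes were not tested. No paired analysis was possible because high and low Gpc3 tumours share no number in the labels and no source pairs them. Tumours and livers of the same mouse are not marked either, so the comparisons with liver treated all libraries as independent.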
